A study of Mus musculus with 8 samples.

Results

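The replication-dependent histone genes encode the linker histone H1 and the core histones H2A, H2B, H3 and H4 that package newly made DNA. They were picked by Entrez gene identifier and name. A gene was a member if its symbol named a histone cluster gene, in the current form (H2ac, H2bc, H3c or H4c with a number, or H1f1 to H1f6) or in the older Hist1h to Hist4h form. Of 24704 genes tested 49 were members, namely 6 of class H1, 13 of H2A, 14 of H2B, 7 of H3 and 9 of H4. The current symbol gave 46 of them and the older symbol 3 more, which were H4f16 (Hist4h4) and the pseudogenes H2bu1-ps and H2af-ps2. The RefSeq gene table held 71 genes that meet the same rule, and those without a row in the values were not analysed here.

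RNA was measured on 8 single-colour arrays of cultured mouse aortic smooth muscle cells. The 4 control arrays carry the virus name AdPl in their titles, and the 4 arrays named AdN5 are described as NFAT5 overexpression. All 8 cultures had been given an adenovirus for 24 h and then cholesterol at 10 µg/ml for 72 h, so the design holds no culture without virus or without cholesterol. NFAT5, or TonEBP, is a transcription factor best known for switching on genes under hypertonic conditions, and the design asks what its overexpression does to transcripts of cholesterol-exposed smooth muscle cells. The labels give no strain, age or number of animals for the cells, do not say what AdPl carries or which promoter drives NFAT5, and do not tell whether the replicates were separate cultures, so the p-values may reflect technical spread alone.

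Most histone is made while DNA is copied, and transcription of these genes is coupled to S phase through NPAT, a substrate of cyclin E-CDK2. Their messenger RNAs have no introns and usually end in a stem-loop bound by the protein SLBP rather than in a poly(A) tail, and they are degraded quickly when DNA synthesis stops. The genes lie in clusters, with many H2A and H2B genes arranged head to head around a shared promoter. Of the 49 members 42 lay on chromosome 13 and 5 on chromosome 3. Most core histone genes of a class encode nearly identical proteins, and their coding sequences are similar. Where the probes lie in each gene was not known here, so signal from a similar copy cannot be told apart from that of the named gene. The labelling protocol does not say whether RNA was primed at poly(A) tails. How much of the messenger RNA without a tail was labelled is therefore unknown.

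Values are log2 intensities after RMA (robust multi-array average), which corrects background, gives all arrays the same distribution and summarises the probes of a gene. Differences below are AdN5 minus AdPl on this scale, with the standard error of limma's model, and a gene was called at an adjusted p under 0.05 over all genes. Nfat5 itself goes against the label: its mean was 6.97 ± 0.072 (SD, n = 4) in the arrays labelled AdN5 and 7.16 ± 0.089 (SD, n = 4) in those labelled AdPl (limma adjusted p = 0.36). Where its probes lie in the transcript was not known here, and every direction below is drawn from the labels. Arrays correlated at 0.989 to 0.993 across genes. The first principal component (22% of the variance) separated the groups, with AdPl arrays from -17.1 to -6.8 and AdN5 arrays from 7.49 to 19.9. On the second (17.1%), AdPl replicate 3 (14.2) and AdN5 replicate 4 (24.7) stood apart at the upper end. The other 6 arrays were spread from -19.5 (AdN5 replicate 3) to 0.337. Of 10 smooth muscle markers 7 lay above the median gene, from Lmod1 at the 64.7 percentile of all genes to Acta2 at 99.9, and Des (49.9), Mylk (47) and Myocd (43.1) lay below it. Above it too were 13 of 14 macrophage, 10 of 12 fibroblast or adventitial, 6 of 10 endothelial, 1 of 8 lymphocyte and 2 of 8 germ cell markers. The measure thus does not set smooth muscle apart. In limma 0 of the 10 smooth muscle markers were called and 4 had an unadjusted p under 0.05 (12.5% of all genes). Acta2 (-0.30) and Mylk (-0.28) were lower and Cnn1 (0.33) higher without overlap, as were 8.78% of all genes in either direction, and Actg2 was at -0.25.

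No histone gene passed the test between the groups. Among the 49 members 0 were called in limma, where 192 genes or 0.777% of all genes were called (0.364% higher and 0.413% lower). Taking p before adjustment, 4 members or 8.16% were under 0.05, against 12.5% of all genes (6.24% higher and 6.29% lower). These were H1f2 and H3c10, lower in the arrays labelled AdN5, and H4c1 and H2ac20, higher. The groups were free of overlap for 1 member, H1f2, or 2.04%, against 8.78% of all genes (4.22% higher and 4.56% lower). The median difference was 0.078 over the members and 0.0042 over all genes. Members lay on both sides of 0, with 30 higher and 19 lower (61.2% higher, against 51% of all genes).

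The precision limits what these counts can show. The 95% interval of the difference lay within a doubling or halving (1 on the log2 scale) for 46 of 49 members and within 0.5 for 27. The 3 with wider intervals were H2ac6 (-0.4 to 1.25), H4c6 (-1.03 to 0.32) and H4c1 (0.16 to 1.12). A smaller change of most members was thus not detectable with 4 arrays in each group. Values below the median gene of these arrays (3.73) are dim. RMA compresses differences there, and a dim value may also be background rather than RNA of the gene. These fold changes may thus be understated or be noise, which was not tested. Of the members 30 were below and 19 above it.

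**Figure D1:**
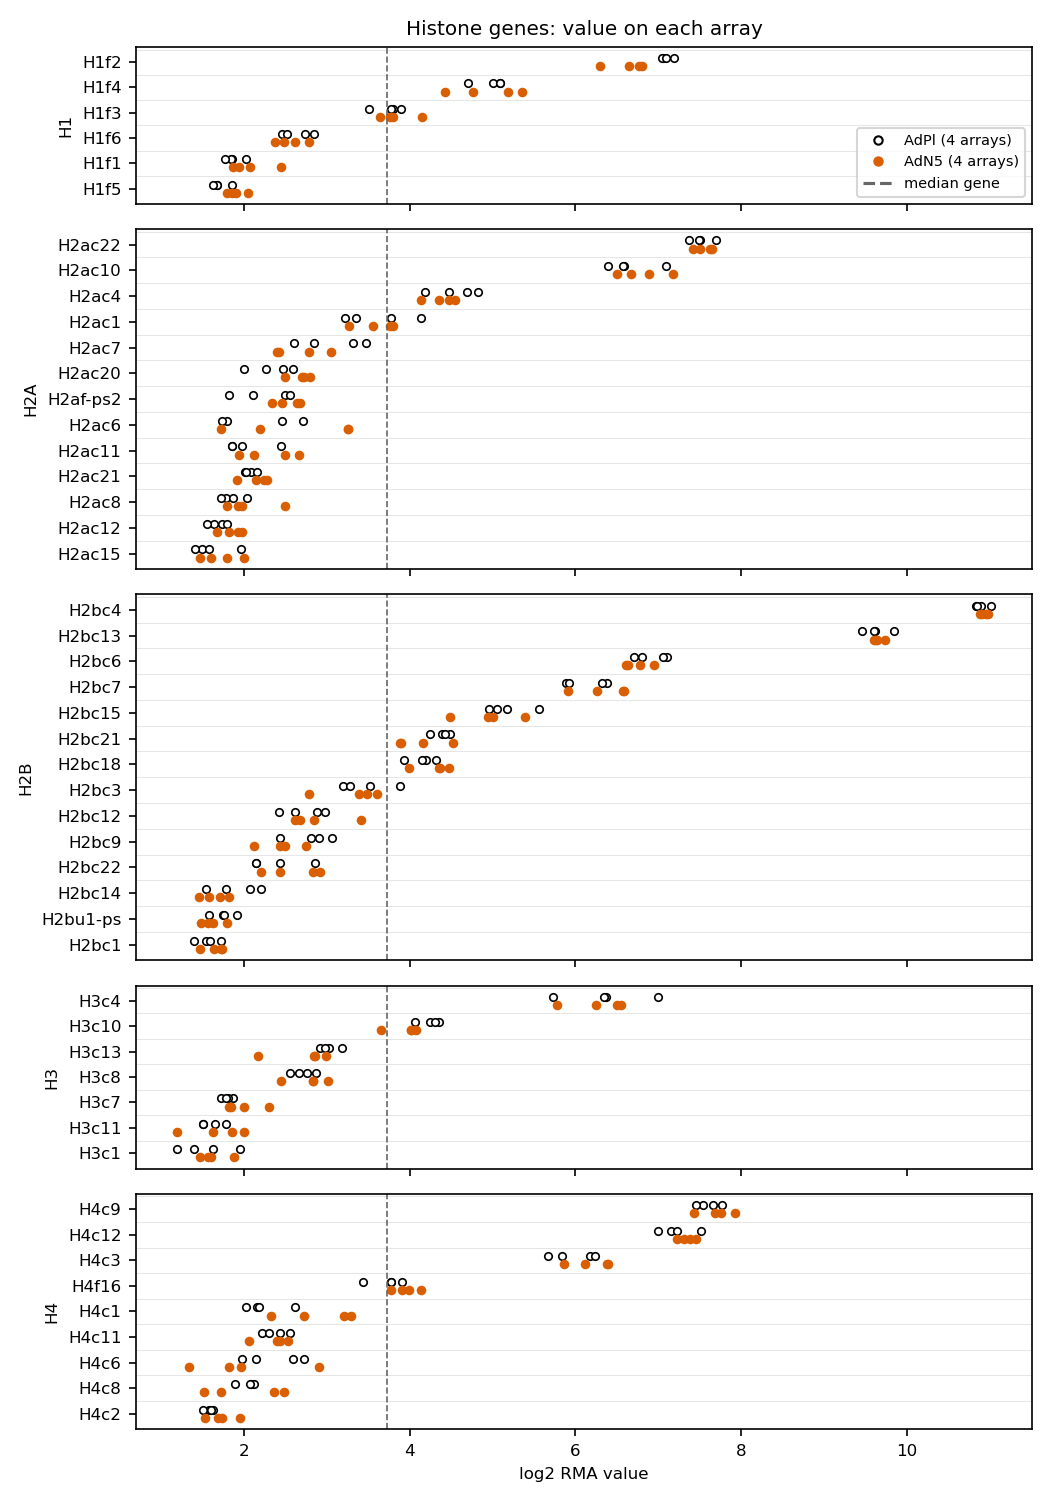
Log2 RMA value (horizontal axis) of each of the 49 histone genes (rows, in panels by class) on the 4 AdPl arrays (open circles) and the 4 AdN5 arrays (filled circles), with the median gene (3.73) as a dashed line. The circles of the groups overlap for every gene except H1f2, and 30 genes lie to the left of the line.

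The sequences before the start sites are shown for the 4 members with an unadjusted p under 0.05. These were the only ones whose 95% interval left out 0. A head-to-head pair is shown too: of the 5 pairs with windows for both genes, the one whose differences lay farthest apart. The sequences come from RefSeq, build GRCm38.p6, which held promoter windows for 43 of the 49 members. The missing entries are H2af-ps2, H2bc4, H2bu1-ps, H2bc21, H3c7 and H3c1. Capitals mark the motifs searched on both strands. These were the CCAAT box (CCAAT), the TATA box (TATAAA), the octamer known from H2B promoters (ATTTGCAT), the AC box known from H1 promoters (AAACACA) and TGGAAA, the invariant start of the tonicity element that NFAT5 binds. Each single-gene sequence reads toward its gene and ends at the base before its start site. It was cut where another annotated gene began, as for H2ac20 (191 bases), so it may be shared with a neighbour.
H1f2, chr13:23738557-23738806, + strand: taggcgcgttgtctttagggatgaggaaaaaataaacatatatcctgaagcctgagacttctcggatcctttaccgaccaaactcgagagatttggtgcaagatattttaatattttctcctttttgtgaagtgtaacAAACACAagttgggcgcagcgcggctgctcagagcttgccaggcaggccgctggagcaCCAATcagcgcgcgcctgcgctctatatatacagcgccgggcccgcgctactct
H4c1, chr13:23761250-23761499, - strand: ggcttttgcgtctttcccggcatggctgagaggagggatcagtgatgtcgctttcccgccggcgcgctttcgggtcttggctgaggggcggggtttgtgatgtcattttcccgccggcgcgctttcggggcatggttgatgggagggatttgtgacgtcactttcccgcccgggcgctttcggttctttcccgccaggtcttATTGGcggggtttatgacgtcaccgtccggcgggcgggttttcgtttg
H3c10, chr13:21717378-21717627, + strand: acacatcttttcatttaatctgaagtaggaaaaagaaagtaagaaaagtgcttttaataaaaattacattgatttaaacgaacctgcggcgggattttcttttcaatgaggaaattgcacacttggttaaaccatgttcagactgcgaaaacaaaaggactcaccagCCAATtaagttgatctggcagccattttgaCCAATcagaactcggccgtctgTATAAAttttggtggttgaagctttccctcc
H2ac20, chr3:96220881-96221071, - strand: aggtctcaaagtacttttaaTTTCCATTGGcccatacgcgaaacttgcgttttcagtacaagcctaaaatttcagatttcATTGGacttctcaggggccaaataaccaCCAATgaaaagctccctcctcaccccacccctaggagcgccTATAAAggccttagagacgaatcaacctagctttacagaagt
H2bc7/H2ac7, chr13:23574208-23574380, + strand: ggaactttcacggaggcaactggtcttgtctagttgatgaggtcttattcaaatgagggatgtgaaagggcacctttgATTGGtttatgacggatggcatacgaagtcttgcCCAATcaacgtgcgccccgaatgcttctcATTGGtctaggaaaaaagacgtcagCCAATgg
The H1f2 sequence held an AC box that began 112 bases before the start site and a CCAAT box 54 bases before it. In H4c1 a CCAAT box in reverse orientation, 48 bases before the start, was the only match. H3c10 held a pair of CCAAT boxes and a TATA box 31 bases before the start. The H2ac20 sequence held 3 CCAAT boxes, a TATA box at 42 bases and a reversed TGGAAA at 171 bases, which overlaps the neighbouring reversed CCAAT box by 1 letter. The 173 bases between the starts of H2bc7 and H2ac7 held 4 CCAAT boxes.

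The motifs differed in share between the histone classes. In the RefSeq windows of 300 bases, which also hold the first bases of the gene, the CCAAT box was found in all members with a window in H1 (6), H2A (12), H2B (11) and H3 (5) but in 2 of 9 H4 members, and in 37.4% of all 32851 windows. The TATA box was in 65.1% of members and 13.6% of all windows. The octamer was in 6 of 11 H2B and 6 of 12 H2A windows, in 0 windows of the other classes and in 1.74% of all windows; windows of head-to-head genes overlap and share matches. The AC box was in 5 of 6 H1 windows and 7.18% of all windows. TGGAAA was in 23.3% of members and 21.4% of all windows. By class it was in 6 of 12 H2A, 2 of 11 H2B, 1 of 5 H3, 1 of 9 H4 and 0 of 6 H1 windows. A match describes letters only and is no measure of binding.

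H1 genes encode the linker histones that sit on the DNA between nucleosomes. H1f2, encoding H1.2, was the member with the clearest separation. Its values were 7.06, 7.04, 7.19 and 7.09 in AdPl replicates 1 to 4 and 6.77, 6.80, 6.65 and 6.30 in AdN5 replicates 1 to 4. Every AdN5 array lay below every AdPl array, and AdN5 replicate 4 was the lowest. The difference was -0.46 ± 0.11 (SE), a level of 0.725 of the control, with a 95% interval from -0.72 to -0.21 and a limma adjusted p of 0.126. It was called among genes above the median gene alone (adjusted p = 0.0495) and with a variance trend and robust estimation (adjusted p = 0.013), and the adjusted p ranged from 0.013 to 0.257 over all alternatives. Without AdPl replicate 3 and AdN5 replicate 4, left out after seeing the data, the difference was -0.32.

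The remaining H1 genes lay closer to 0. H1f4, encoding H1.4, was at -0.04 ± 0.19, and H1f3, encoding H1.3, at 0.09 ± 0.13. H1f1 (0.21 ± 0.13) and H1f5 (0.19 ± 0.087) were dim, with means of 1.98 and 1.80 over the 8 arrays. The testis linker histone gene H1f6 was at -0.08 ± 0.12. The median over the 6 genes was 0.027, with 3 above and 3 below 0.

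H2A and H2B form the dimers that flank the H3-H4 core of the nucleosome. Of 13 H2A members 10 were higher and 3 lower, with a median of 0.15, and 0 were called. Only 3 of the 13 lay above the median gene, and over these the median was 0.038. H2ac6 read 2.71, 1.80, 1.74 and 2.46 in AdPl replicates 1 to 4 and 2.19, 3.25, 3.26 and 1.72 in AdN5 replicates 1 to 4. AdN5 replicates 2 and 3 were its highest values and replicate 4 its lowest, so its difference of 0.43 ± 0.37 was close to its error. H2ac20 read 2.47, 2.27, 2.59 and 2.0 against 2.50, 2.80, 2.70 and 2.72, a difference of 0.35 ± 0.13 (limma adjusted p = 0.302). Its AdPl array 3 lay above AdN5 array 1, so the groups overlapped. At the other end were H2ac7 (-0.39 ± 0.21) and H2ac4 (-0.17 ± 0.15). The member with the highest value, H2ac22, was at 0.04 ± 0.093 with a mean of 7.53.

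The 14 H2B members divided evenly, 7 higher and 7 lower, with a median of -0.051 and 0 called. H2bc4 had the highest value of all members, at the 99.5 percentile of all genes. It read 10.90, 10.83, 11.02 and 10.85 in AdPl replicates 1 to 4 and 10.91, 10.96, 10.88 and 10.98 in AdN5 replicates 1 to 4. The arrays were interleaved, and the difference of 0.03 ± 0.074 had a 95% interval from -0.14 to 0.20. H2bc13, at a mean of 9.64, was likewise at 0.03 ± 0.092. The ends of the class were H2bc7 (0.21 ± 0.18) and H2bc22 (0.20 ± 0.20) on the higher side and H2bc9 (-0.36 ± 0.16) and H2bc21 (-0.28 ± 0.14) on the lower side. H2bc21 read 4.25 to 4.49 in the AdPl arrays, and AdN5 replicate 2 at 4.52 lay above all of them while the other AdN5 arrays lay between 3.88 and 4.16.

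Head-to-head H2A and H2B genes had differences of either sign. With start sites under 500 bases apart on opposite strands there were 5 pairs with windows, 2 with the same sign and 3 with opposite signs. Members without a window, such as H2bc21 (-0.28 ± 0.14), could not enter a pair. Pairs that hold such a member were not examined and may differ more widely. Among the 5 examined the widest gap was in the pair shown above, where H2bc7 was at 0.21 ± 0.18 and H2ac7 at -0.39 ± 0.21. H2ac7 read 2.60, 2.85, 3.47 and 3.32 in the AdPl arrays and 3.05, 2.79, 2.42 and 2.40 in the AdN5 arrays, with overlap. The other pairs were H2ac15 (0.11) with H2bc15 (-0.23), H2ac22 (0.04) with H2bc22 (0.20), H2bc1 (0.08) with H2ac1 (-0.02) and H2ac12 (0.17) with H2bc12 (0.16). All differences in these 5 pairs lay within 2 standard errors of 0, which says nothing of pairs that were not examined.

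**Figure D2:**
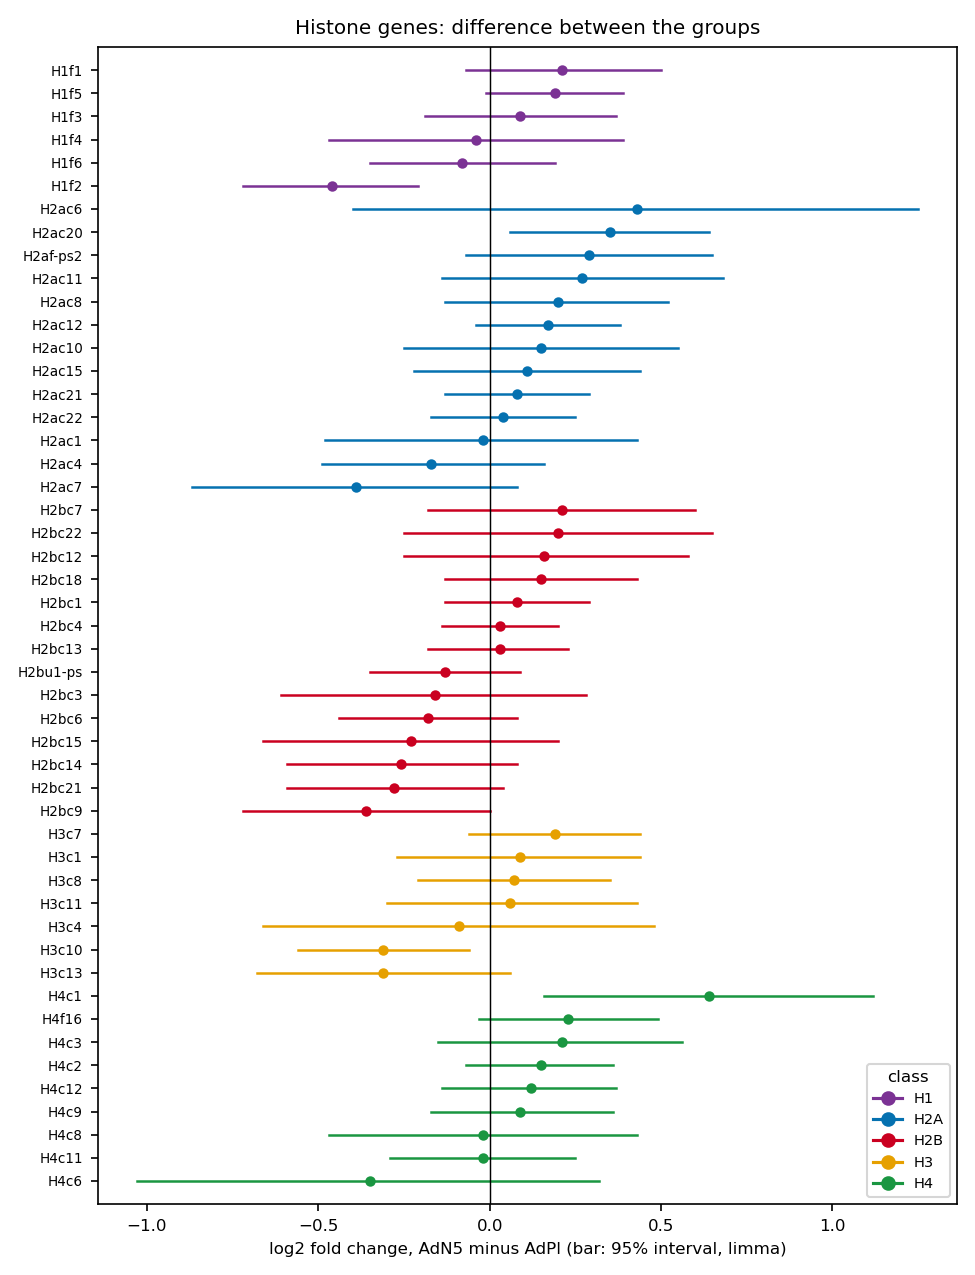
Log2 fold change, AdN5 minus AdPl (horizontal axis), of the 49 histone genes (rows, coloured by class), with bars for the 95% interval from limma (n = 4 per group). Bars leave out 0 for 4 genes, H1f2 and H3c10 on the lower side and H2ac20 and H4c1 on the higher side, and the bar of H2bc9 ends at 0.

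H3 and H4 make up the tetramer at the centre of the nucleosome. The 7 H3 members had a median of 0.063, with 4 higher, 3 lower and 0 called. The pair above the median gene, H3c4 and H3c10, were both below 0, with a median of -0.2. H3c10 read 4.35, 4.25, 4.31 and 4.07 in AdPl replicates 1 to 4 and 4.08, 4.01, 4.02 and 3.65 in AdN5 replicates 1 to 4. AdN5 replicate 1 lay just above AdPl replicate 4, so the groups overlapped, and the difference was -0.31 ± 0.11 (limma adjusted p = 0.284). Without AdN5 replicate 4 it was -0.21. H3c13 was at -0.31 ± 0.17, and H3c4, with the highest value of the class (6.32), at -0.09 ± 0.26. On the other side were H3c7 (0.19 ± 0.11) and H3c1 (0.09 ± 0.16), both dim.

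H4c1 had the largest difference of any member. It read 2.16, 2.18, 2.62 and 2.02 in AdPl replicates 1 to 4 and 2.32, 3.21, 3.29 and 2.72 in AdN5 replicates 1 to 4. AdN5 replicates 2, 3 and 4 lay above all AdPl arrays, and AdN5 replicate 1 lay below AdPl replicate 3. The difference was 0.64 ± 0.22, a ratio of 1.56 with a limma adjusted p of 0.257, and all 8 values were below the median gene. Next was H4f16 (0.23 ± 0.12), and at the other end H4c6 (-0.35 ± 0.30), H4c8 (-0.02 ± 0.20) and H4c11 (-0.02 ± 0.12). H4c9, with the highest H4 value (7.66), was at 0.09 ± 0.12. Of the 9 members 6 were higher and 3 lower, with a median of 0.12 and 0 called.

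**Figure D3:**
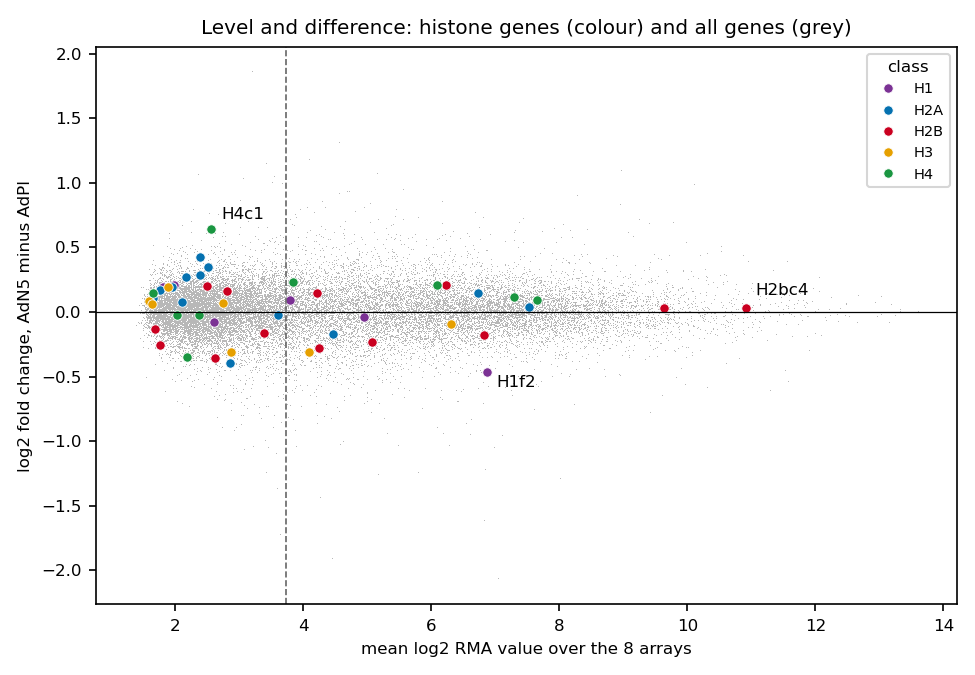
Log2 fold change, AdN5 minus AdPl (vertical axis), against the mean log2 RMA value over the 8 arrays (horizontal axis), for the histone genes (colour by class) and all 24704 genes (grey), with the median gene (3.73) as a dashed line. Histone genes lie within the grey cloud, from H1f2 at -0.46 to H4c1 at 0.64, and H2bc4 at 10.92 lies next to 0.

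The histone values varied more within a group than those of other genes. The median within-group SD was 0.23 over members, against 0.16 over all genes, and it was 0.19 and 0.13 above the median gene and 0.25 and 0.19 below it; this was not tested. Among the 30 dim members, AdN5 replicate 3 was the highest AdN5 array for 14 (46.7%, against 24.4% of all dim genes) and replicate 4 the lowest for 16 (53.3%, against 25%). The 19 members above the median gene did not show this order: AdN5 replicate 3 was the highest for 3 and the lowest for 8, and replicate 4 the highest for 6 and the lowest for 6. The mean over all members was 3.72, 3.82, 3.87 and 3.70 in AdN5 replicates 1 to 4 and 3.73, 3.69, 3.80 and 3.78 in AdPl replicates 1 to 4. The groups overlapped, at 3.78 ± 0.083 and 3.75 ± 0.053 (SD, n = 4). AdN5 replicates 3 and 4 are also the arrays at opposite ends of the second principal component, and the part of this in the differences was not tested.

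Some genes of DNA replication rose in the arrays labelled AdN5. Of 52 S phase and DNA replication genes measured 9 rose, 0 fell and 43 did not pass, where 0.364% of all genes were called higher. The median was 0.28, with 45 above 0. In limma 29 of the 52 had an unadjusted p under 0.05, against 12.5% of all genes. With the replicate number as a block the count was 0. The 9 were E2f8 (1.31 ± 0.16) and E2f7 (0.77 ± 0.097), atypical E2F repressors, the cyclin genes Ccne2 (0.93 ± 0.14), Ccna2 (0.84 ± 0.15) and Ccne1 (0.54 ± 0.086), the ubiquitin ligase receptor gene Dtl (0.85 ± 0.099), and the helicase subunit genes Mcm6 (0.60 ± 0.080), Mcm4 (0.57 ± 0.098) and Mcm3 (0.48 ± 0.075), with limma adjusted p from 0.00802 to 0.0384. The ends below 0 were Rpa2 (-0.07) and Dscc1 (-0.13). The list mean was 4.71 to 4.83 in the AdPl arrays and 5.01 to 5.22 in the AdN5 arrays, without overlap. The means over the histone genes overlapped, but the lists differ in brightness. Of the 52 genes 43 lay above the median gene, against 19 of the 49 histone members. Those 19 members had a median difference of 0.03. Their means overlapped too, at 6.05 to 6.24 in the AdPl arrays and 6.08 to 6.20 in the AdN5 arrays. The count of S phase genes called higher was 3 without AdPl replicate 1, 4 without AdPl replicate 2, 3 or 4 and 5 without AdN5 replicate 1. It was 2 without AdPl replicate 3 and AdN5 replicate 4 together. Whether the histone genes differ from this list was not tested.

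Among 24 genes of G2 and mitosis, Mki67, a marker of cycling cells, rose by 0.61 ± 0.10 (limma adjusted p = 0.0329), 0 fell and 23 did not pass. Over all genes 0.364% were called higher and 0.413% lower. In limma 11 of the 24 had an unadjusted p under 0.05, against 12.5% of all genes. When single arrays were omitted, 1 gene of the list was called without AdN5 replicate 3 and 0 without any of the other arrays. With the replicate number as a block 0 were called. The median was 0.28, with the kinetochore gene Nuf2 (0.92) and the topoisomerase gene Top2a (0.71) at one end and the condensin genes Ncapg (0.04) and Smc4 (-0.16) at the other. The list mean was 4.45 to 4.63 in the AdPl arrays and 4.65 to 5.08 in the AdN5 arrays, so the groups were only narrowly apart.

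The genes that make and handle histones were not called. Among 22 genes of histone transcription and pre-mRNA processing 0 passed in limma, 3 had an unadjusted p under 0.05, and the median was 0.0066. Over all genes 12.5% had an unadjusted p under 0.05. Slbp, encoding the stem-loop binding protein, was at 0.19 ± 0.12, Npat at 0.02 ± 0.087 and Casp8ap2 at 0.12 ± 0.16. The ends were the cleavage factor gene Cstf2 (0.26) and E2f1 (0.24), and Lsm11 (-0.23), a subunit of the histone-specific U7 particle, and Hinfp (-0.25), encoding an activator of H4 genes. Of 22 histone chaperone genes 0 passed in limma and 8 had an unadjusted p under 0.05, with a median of 0.16 and 17 above 0. Chaf1b, a subunit of the chromatin assembly factor that deposits new H3 and H4 behind the fork, was at 0.71 ± 0.14 (limma adjusted p = 0.0662), and Asf1b, which hands histones to it, at 0.52 ± 0.18. The lower end was Hira (-0.17), which deposits H3.3 independently of replication, and Asf1a (-0.20), which also serves that pathway. Chaf1b, Chaf1a (0.28) and Mcm2 (0.49) stand in the S phase list too, so these lists are not independent. The chaperone mean did not overlap between the groups (6.07 to 6.17 against 6.21 to 6.35).

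The 14 measured histone variant genes that are expressed outside S phase had a median of 0.041. In limma 0 were called and 1 had an unadjusted p under 0.05, against 12.5% of all genes. That gene was Hils1, a spermatid linker histone (0.38 ± 0.086), which is dim at 2.49 in the AdPl arrays. H1f10 was at 0.19 ± 0.14. H2aj (-0.33 ± 0.18) and H3f3a (-0.15 ± 0.29) lay at the lower end, and H3f3b, which encodes the same H3.3 protein as H3f3a, was at -0.14 ± 0.087.

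**Figure D4:**
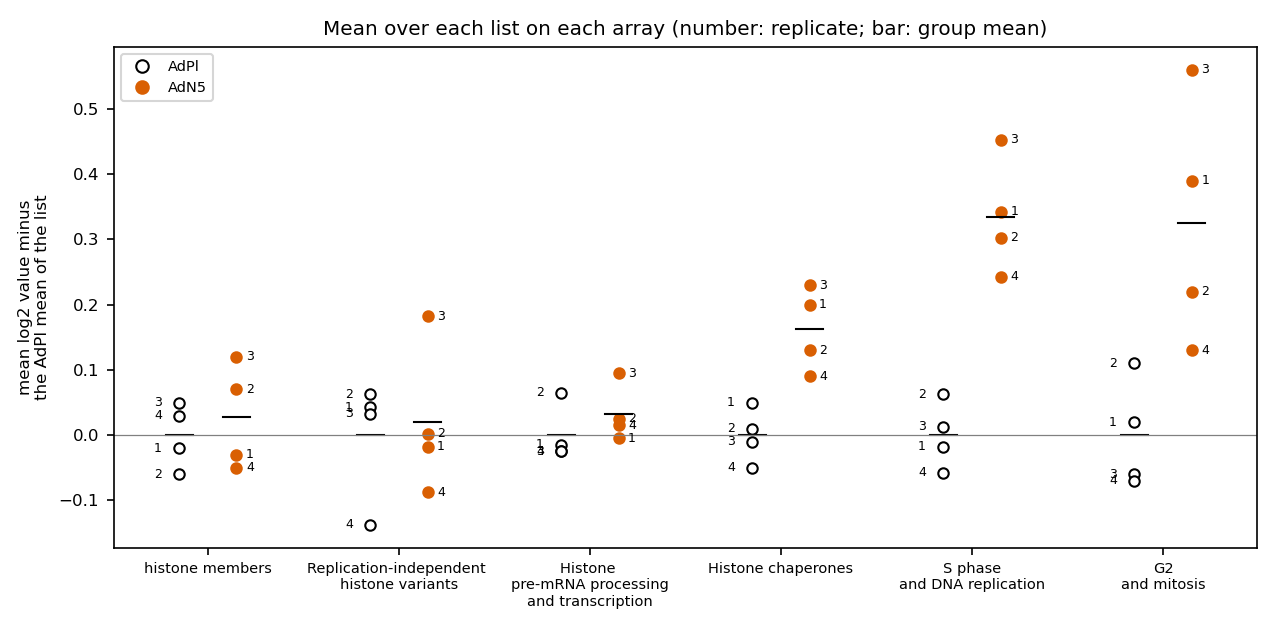
Mean log2 value over each list of genes on each array, minus the AdPl mean of that list (vertical axis), for the 4 AdPl arrays (open) and the 4 AdN5 arrays (filled), numbered by replicate, with bars for the group means. The histone members overlap between the groups. The AdN5 arrays lie above all AdPl arrays for the chaperones, for S phase and DNA replication and, narrowly, for G2 and mitosis.

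Markers of other cell types also differed between the arrays. Of 14 macrophage markers 3 rose (Adgre1, Laptm5 and Cd68), 0 fell and 13 were above 0, with list means of 5.72 to 5.87 in the AdPl arrays and 6.04 to 6.27 in the AdN5 arrays. Of 12 fibroblast or adventitial markers Ly6c1 fell, 10 were below 0, and the list means were 6.71 to 6.75 and 6.36 to 6.49. Over all genes 0.364% were called higher and 0.413% lower, and 51% lay above 0. The counts of called markers were not recomputed under the alternative settings. The 10 endothelial and 8 lymphocyte markers held 0 called genes in limma. At an unadjusted p under 0.05 were 2 and 0 of them, against 12.5% of all genes. Their list means were 4.27 to 4.43 and 2.65 to 2.83 in the AdPl arrays and 4.23 to 4.43 and 2.79 to 2.92 in the AdN5 arrays. Of the 8 lymphocyte markers 1 lay above the median gene. The part of these markers in the histone values was not tested, and in cultures measured in bulk a different share of cells expressing a gene and a different amount of its RNA per cell cannot be told apart.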

How the data were processed

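The authors deposited log2 expression values; RMA is the method listed in the submitters' processing notes, without a version. The sorted values of the 8 arrays differed by at most 0.00183, so a shift of all genes in one direction could not be seen. Of 25428 rows, each keyed by an Entrez identifier, 24705 had 1 symbol in the supplied probe table (0 had several and 723 are unnamed here), and the brighter row was kept for the symbol held by a pair of rows. Names and older symbols came from RefSeq (GRCm38.p6), which matched 24673 identifiers; the build behind the probe sets is not given in the sources used here. No scan date was given.

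All 24704 genes were fitted in R 4.3.3 by limma 3.58.1 (functions lmFit and eBayes, two-sided, no covariates, 4 arrays per group), with Benjamini-Hochberg adjustment over all of them. The code was tested on simulated data. Figures were drawn with Python 3.11.15 and matplotlib 3.10.9. The members and lists were chosen with earlier results of these data known. Named were called genes, all H1 genes, the 2 highest and 2 lowest differences and the highest value of each class, and the ends of each list; others were named after their values were seen. Lists are described by counts and medians, without a test. The number of arrays limits the precision.

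Results were recomputed with replicate number as block, after quantile normalisation was repeated or arrays were centred on the median, on genes above the lower quartile or the median of expression, with array weights, with robust estimation and a variance trend, at an adjusted p under 0.01, with each array left out, members without pseudogenes and testis genes and, added after seeing the data, members by current symbol alone and both arrays that stood apart left out. Members without a probe set and promoters without an entry were not used here.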

Additional observations from a re-analysis of the deposited data

Results flagged for a closer look

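H3c10 in AdN5 replicate 4 was far from the other arrays of its group, at 3.65 against 4.01 to 4.08. It was the only one of 112 groups of 4 values checked (each member, the class means and Nfat5 in both groups) whose gap to its neighbour exceeded Dixon's 95% critical value (ratio of gap to range 0.838). Chance alone flags about 1 in 20 groups.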

How the results depend on the processing

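No histone gene was called higher under any of the 19 alternatives. The count called lower was 1 among genes above the median and 1 with a variance trend and robust estimation, H1f2 in both cases, and 0 under the other 17. All genes called numbered 14 with the replicate block, 497 above the median, 781 with the variance trend, 42 at an adjusted p under 0.01, 30 with AdPl replicate 3 and AdN5 replicate 4 both left out, and 56 to 88 with 1 array left out. Replicate numbers did not pair the arrays (same-number correlations from -0.079 to 0.055); with this block 0 histone genes, 0 S phase genes and 0 mitotic genes were called. S phase genes called higher were 2 with both arrays left out and 3 to 8 with 1 left out. Mitotic genes were 4 with the variance trend, 0 with both left out and 0 to 1 with 1 left out; chaperones were 2 with the variance trend. Some class medians moved with the genes or arrays kept. The H2A median was 0.0091 above the lower quartile and 0.038 above the median. The H2B median was 0.027 under both filters and 0.027 by current symbol alone (-0.074 to 0.007 with 1 array left out). The H3 median was -0.2 under both filters, -0.042 as a mean, and -0.048 to 0.11 with 1 array left out. The filters drop dim members, but what moved the medians was not tested. The medians of all members, H1 and H4 moved by less than the spread between arrays under all 17 alternatives. Nfat5 ranged from -0.22 to -0.16 (adjusted p 0.152 to 0.564). Differences of dim members, under the median gene, are limited by signal over background.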

Other observations

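The testis histone genes had means below the median gene (3.73) in these cultures, with H2ac1 close to it at the 48.3 percentile. H2ac1 had a mean of 3.61 over the 8 arrays and a difference of -0.02 ± 0.20, H2bc1 a mean of 1.60 and a difference of 0.08 ± 0.095, and H1f6 a mean of 2.60 and a difference of -0.08 ± 0.12. Of the 8 germ cell markers 0 were called in limma and 0 had an unadjusted p under 0.05, against 12.5% of all genes. Their list means were 2.89 to 3.05 in the AdPl arrays and 2.98 to 3.04 in the AdN5 arrays, so the groups overlapped. The protamine gene Prm1 (0.23) and the transition protein gene Tnp1 (0.24) were at the upper end, and Acr and Zpbp, genes of the sperm acrosome, at -0.13 each. Prm1 and the protamine gene Prm2 had means of 4.03 and 5.13 over the 8 arrays, above the median gene.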
